A study of Mus musculus with 6 samples.

Results

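The small leucine-rich proteoglycans are secreted proteins with a core of leucine-rich repeats, most of which carry sugar chains of the chondroitin, dermatan or keratan sulfate type. In tendon they bind the surface of collagen fibrils and are known for setting how fibrils assemble, widen and fuse, and several also bind growth factors such as TGF-β. RNA from this family was followed in injured Achilles tendon through 10 genes chosen by name, *Dcn*, *Bgn*, *Fmod*, *Lum*, *Kera*, *Prelp*, *Ogn*, *Aspn*, *Epyc* and *Omd*, out of 18099 genes in the table. All 10 were in the table and all 10 passed the filter on low counts.

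The tissue came from 3 Lysm-Cre; Ampkα1fl/fl mice, labelled as a myeloid AMPK knockout, and from 3 littermates labelled as the control group. The study gives these littermates as Ampkα1fl/fl, so the floxed *Prkaa1* alleles (the gene of AMPKα1) are shared by both groups. All 6 mice were neonatal, had the Achilles tendon of each leg cut across, and were collected 7 days after the injury. Cre in these mice is made from the lysozyme M locus and acts in the myeloid lineage. The libraries hold RNA of all cells of the repair tissue, so fewer cells of a type and less RNA per cell cannot be told apart. The methods give 3 mice per condition, so the replicates are taken as separate animals.

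Totals ran from 18076805 to 19479887 reads per library. *Prkaa1* had 740, 688 and 690 reads in the control mice against 626, 751 and 652 reads in the Lysm-Cre; Ampkα1fl/fl mice (log2 fold change -0.08, with a standard error, SE, of 0.09, edgeR adjusted p = 0.744), a count over the whole gene and all cells. *Lyz2*, the lysozyme M gene itself, had 7378, 7778 and 7372 reads against 9, 15 and 8 reads. The groups thus differed in the Cre allele and in *Lyz2* as well as in the AMPKα1 deletion, and these cannot be told apart here. The tenocyte and fibroblast markers were present in all libraries: 12 of 12 were tested, 0 were at 0 reads in every library, and their summed level was 96162 to 105376 CPM (read counts scaled to the size of each library, with TMM factors) in the control mice and 90269 to 107138 CPM in the Lysm-Cre; Ampkα1fl/fl mice. That sum was mostly *Col1a1* and *Col1a2*, so it says little about the other markers of the list. None of the 12 passed an adjusted p of 0.05 in edgeR (0 genes, 3 at an unadjusted p under 0.05, against 14.5% of all genes tested). Other cell types differed between libraries. The 30 skeletal muscle genes summed to 314 to 4784 CPM in the control mice and 1685 to 14262 CPM in the Lysm-Cre; Ampkα1fl/fl mice, with the highest sum in the third Lysm-Cre; Ampkα1fl/fl mouse, and the second control mouse held 38245 reads of the cartilage collagen *Col2a1* against 4103 to 6642 reads in the other 5 mice. Of 7 erythrocyte markers 6 passed in edgeR, all lower in the Lysm-Cre; Ampkα1fl/fl mice (summed level 1997 to 2973 against 676 to 983 CPM), and with the replicate block 1 of the 7 passed, *Hbb-bs*. Over all genes tested, 0.568% passed as lower, and 0.252% did with the replicate block. Of 10 macrophage markers 0 passed (6 at an unadjusted p under 0.05, smallest edgeR adjusted p = 0.0508), with sums of 1091 to 1139 against 720 to 908 CPM, and of 18 cell division genes 0 passed (18 at an unadjusted p under 0.05, all lower, smallest edgeR adjusted p = 0.0871), with sums of 661 to 847 against 409 to 595 CPM. None of these markers was at 0 in every library. Their part in the values of the family was not tested, apart from the muscle genes, for which a fit with a covariate is given beside *Ogn*.

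On GRCm38.p6 most of the family lies in clusters. *Dcn*, *Lum*, *Kera* and *Epyc* sit next to each other on chromosome 10, from 97479500 to 97681908. *Aspn*, *Omd* and *Ogn* follow each other on chromosome 13, from 49544443 to 49624501, all inside the span of *Cenpp* (49464025 to 49652950). *Prelp* (133910304 to 133930102) and *Fmod* (134037254 to 134048280) are neighbours on chromosome 1, and *Bgn* is alone on chromosome X, from 73483601 to 73495936. *Cenpp*, a centromere gene whose reads could be mixed with those of the genes inside it if counting ignored strand, had 33 to 47 reads per library, which is far below *Aspn* and *Ogn* and close to *Omd*.

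RefSeq start-site windows of 300 bases (250 before the start and 50 after it, GRCm38.p6) were available for 8 of the 10 genes, all but *Dcn* and *Lum*. The bases before the start are shown for *Bgn*, *Aspn* and *Ogn*, the genes whose level in every Lysm-Cre; Ampkα1fl/fl mouse was above every control mouse. Capitals mark matches to TATAAA or GGGCGG on either strand. All 3 are on the plus strand, at chrX:73483351-73483600, chr13:49544193-49544442 and chr13:49607765-49608014.
Bgn: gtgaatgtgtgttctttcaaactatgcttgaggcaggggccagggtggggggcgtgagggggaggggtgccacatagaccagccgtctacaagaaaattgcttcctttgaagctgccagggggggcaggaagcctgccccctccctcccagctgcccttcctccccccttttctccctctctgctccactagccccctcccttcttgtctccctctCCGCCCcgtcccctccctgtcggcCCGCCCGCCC
Aspn: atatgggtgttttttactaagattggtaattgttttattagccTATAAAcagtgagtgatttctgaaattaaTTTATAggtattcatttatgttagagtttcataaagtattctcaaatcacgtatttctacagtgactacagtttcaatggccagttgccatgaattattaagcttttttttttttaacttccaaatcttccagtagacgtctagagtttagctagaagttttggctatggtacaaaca
Ogn: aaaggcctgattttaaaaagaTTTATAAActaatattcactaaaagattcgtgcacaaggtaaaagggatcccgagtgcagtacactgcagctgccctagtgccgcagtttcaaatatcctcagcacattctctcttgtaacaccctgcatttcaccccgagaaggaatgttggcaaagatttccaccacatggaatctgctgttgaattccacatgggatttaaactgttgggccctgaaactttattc

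The windows differed in base composition. The full *Bgn* window was 63.7% G and C, and the GC box GGGCGG matched it 3 times on the reverse strand, at positions -34, -10 and -6 from the start (the last pair overlapping). The *Aspn* and *Ogn* windows were 31.0% and 42.3% G and C, against a median of 52.7% over 32851 windows, and each held TATAAA on both strands, at -207 and -178 in *Aspn* and at -227 and -229 in *Ogn*, where the pair overlaps. TATAAA was in 13.6% of all windows and GGGCGG in 35.7%. Of the other elements searched on both strands, CAGATG, a form of E-box, matched *Fmod* (17.2% of all windows), CAGAC, the SMAD element, matched *Fmod* and *Prelp* (49.6% of all windows), and TGANTCA, the AP-1 element, matched 0 of the 9 windows of the family (7.81% of all windows). *Epyc* has 2 of these windows.

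The family as a whole was abundant. Its summed level, in TPM (transcript abundance per length on a common scale for all libraries, so that genes can be compared), was 14829, 15234 and 14952 TPM in the control mice and 15632, 16113 and 15199 TPM in the Lysm-Cre; Ampkα1fl/fl mice. The third Lysm-Cre; Ampkα1fl/fl mouse lay below the second control mouse, so the groups overlapped in TPM. In reads they did not: the 10 genes held 1.48%, 1.59% and 1.51% of the reads of the control libraries and 1.61%, 1.65% and 1.60% of those of the Lysm-Cre; Ampkα1fl/fl libraries (two-sided exact permutation p = 0.1), and their summed CPM was 14810 to 15829 against 16085 to 16372. The 10 genes took 1.48% to 1.52% of all TPM in the control mice and 1.52% to 1.61% in the Lysm-Cre; Ampkα1fl/fl mice (p = 0.2 in a two-sided exact permutation test, where 0.1 is the smallest that 3 mice against 3 allow).

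**Figure D1:**
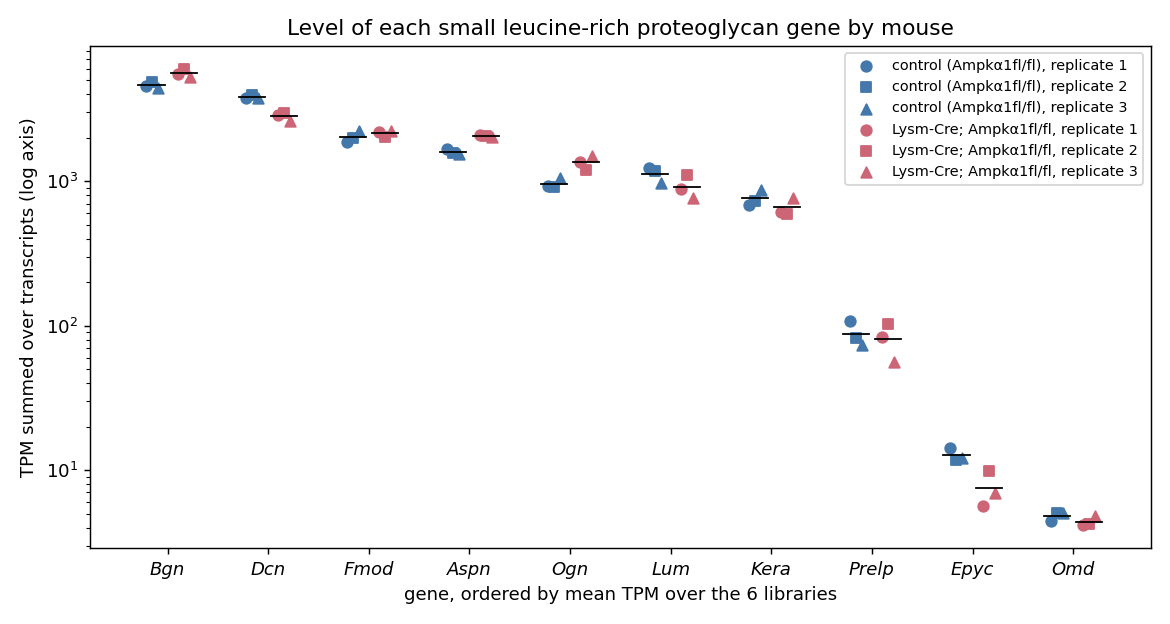
Each point is the TPM of a gene in a mouse (log axis), with colour for the group, shape for the replicate number and a bar for the group mean of 3 mice. *Bgn* was highest in all 6 mice and *Omd* lowest, and the means over all mice ran from 5104 TPM to 4.61 TPM.

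*Bgn*, which encodes biglycan, led with 5104 TPM on average over the 6 mice and ranked between 9 and 16 among all genes of a library. *Dcn*, which encodes decorin, averaged 3325 TPM, followed by *Fmod* (fibromodulin) with 2086 TPM, *Aspn* (asporin) with 1826 TPM, *Ogn* (osteoglycin, also called mimecan) with 1158 TPM, *Lum* (lumican) with 1018 TPM and *Kera* (keratocan) with 711 TPM. *Prelp*, whose product binds both collagen and heparan sulfate, followed at 84.3 TPM, and the mean of *Kera* was 8.44 times that of *Prelp*. *Epyc* (epiphycan, known from growth cartilage) had 10.1 TPM and *Omd* (osteomodulin, known from bone) 4.61 TPM. The mean of *Prelp* was 8.37 times that of *Epyc*.

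The order of the genes differed little between mice. Places 1, 2 and 7 to 10 were held by the same genes in all 6 libraries. *Fmod* was above *Aspn* in 5 of 6 mice, and the exception was the second Lysm-Cre; Ampkα1fl/fl mouse, with 2039 against 2063 TPM. *Ogn* was above *Lum* in 4 of 6 mice, which were the third control mouse and all 3 Lysm-Cre; Ampkα1fl/fl mice. Among neighbours in the order, *Fmod* and *Aspn* overlapped within the Lysm-Cre; Ampkα1fl/fl group and *Ogn* and *Lum* within the control group, whereas every other neighbouring pair was separate in both groups.

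Between the groups, the family divided. *Dcn* fell and *Aspn* rose in the Lysm-Cre; Ampkα1fl/fl mice, the members that passed an adjusted p of 0.05 in edgeR (2 of 10, against 0.898% of the 14261 genes tested, or 0.33% higher and 0.568% lower). In 5 of the 10 genes the groups did not overlap in CPM, against 20.4% of all genes tested: *Bgn*, *Aspn* and *Ogn* were higher in every Lysm-Cre; Ampkα1fl/fl mouse (8.94% of all genes) and *Dcn* and *Epyc* were lower in every one (11.4% of all genes). *Fmod*, *Lum*, *Kera*, *Prelp* and *Omd* overlapped. When edgeR blocked on the replicate number, 0 of the 10 passed (7 at an unadjusted p under 0.05, against 5 without the block), where 0.33% of all genes passed (0.0771% higher and 0.252% lower). Without the block, 14.5% of all genes tested had an unadjusted p under 0.05. With DESeq2, 5 of the 10 passed, the same genes that did not overlap, where 4.77% of all genes passed (2.12% higher and 2.65% lower).

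**Figure D2:**
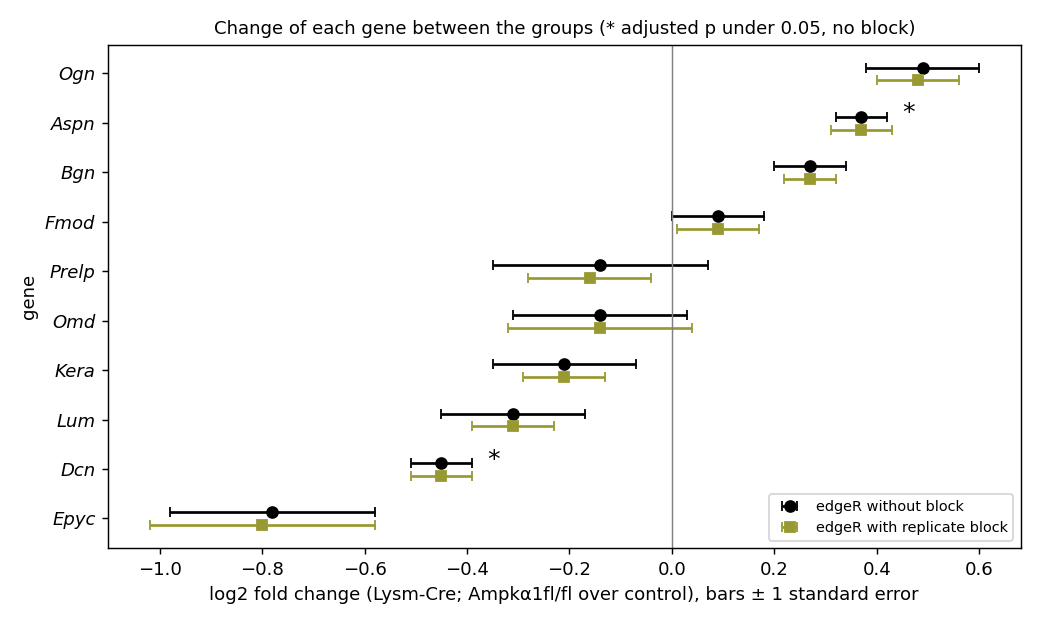
Points are log2 fold changes of the Lysm-Cre; Ampkα1fl/fl group over the control group for each of the 10 genes, from edgeR without a block (circles) and with one for the replicate number (squares), and bars are 1 standard error. Without the block the estimates ran from -0.78 in *Epyc* to 0.49 in *Ogn*, and stars mark *Dcn* and *Aspn*, which passed an adjusted p of 0.05 without the block only.

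Decorin is the main dermatan sulfate proteoglycan of tendon, limits the lateral fusion of collagen fibrils and binds TGF-β. *Dcn* (NCBI Gene 13179) had 55311, 58102 and 53816 reads in the control mice against 43095, 41863 and 38841 reads in the Lysm-Cre; Ampkα1fl/fl mice. The level was 3017 ± 137 CPM in the control group against 2204 ± 90.7 CPM in the Lysm-Cre; Ampkα1fl/fl group (SD, n = 3 each). All control mice were above all Lysm-Cre; Ampkα1fl/fl mice, with 2927 CPM in the lowest control mouse and 2264 CPM in the highest Lysm-Cre; Ampkα1fl/fl mouse. The log2 fold change was -0.45 (SE 0.06, edgeR adjusted p = 0.0301, exact permutation p = 0.1), and by p *Dcn* was number 64 of the genes tested. With the replicate block the log2 fold change was again -0.45 (edgeR adjusted p = 0.0611). Leaving out the first, the second or the third control mouse gave edgeR adjusted p of 0.144, 0.155 and 0.0659, and leaving out the first or the third Lysm-Cre; Ampkα1fl/fl mouse gave 0.131 and 0.0954, while without the second it was 0.0384. Over these fits and the other alternatives the log2 fold change stayed between -0.47 and -0.42. Between 98.8% and 99.3% of the TPM of *Dcn* came from 1 of its 2 transcripts, and the minor transcript was also lower in every Lysm-Cre; Ampkα1fl/fl mouse, with 257.97 to 299.64 estimated reads against 496.92 to 678.18.

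Asporin is a relative of decorin and biglycan with a run of aspartate residues and no sugar chain of that kind, and it binds collagen, calcium and TGF-β. *Aspn* (NCBI Gene 66695) had 31614, 29949 and 28610 reads in the control mice against 41271, 37549 and 39047 reads in the Lysm-Cre; Ampkα1fl/fl mice. Every Lysm-Cre; Ampkα1fl/fl mouse was above every control mouse, and the spread was small, with a coefficient of variation of 3.25% and 2.94% in CPM in the control and Lysm-Cre; Ampkα1fl/fl groups. *Aspn* rose from 1626 ± 52.8 to 2098 ± 61.7 CPM (mean ± SD of 3 mice each; log2 fold change 0.37, SE 0.05, edgeR adjusted p = 0.0409, exact permutation p = 0.1). With the replicate block the log2 fold change was 0.37 (edgeR adjusted p = 0.0816), and with upper-quartile scaling in edgeR 0.36 (adjusted p = 0.0555). Without the first, the second or the third control mouse the edgeR adjusted p was 0.18, 0.185 and 0.0853, without the first or the third Lysm-Cre; Ampkα1fl/fl mouse 0.148 and 0.121, and without the second 0.0389. Both transcripts of the gene were higher on average in the Lysm-Cre; Ampkα1fl/fl group, and the main transcript carried 95.9% to 96.9% of the TPM.

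Biglycan is the closest relative of decorin, usually carries more sugar chains, and in free form is a ligand of the Toll-like receptors TLR2 and TLR4. *Bgn* (NCBI Gene 12111) had 90307, 96261 and 83968 reads in the control mice against 112346, 113153 and 105163 reads in the Lysm-Cre; Ampkα1fl/fl mice, again with no overlap. Its level was 4881 ± 340 CPM and 5888 ± 219 CPM (SD, n = 3 each). The log2 fold change of 0.27 (SE 0.07) did not pass in edgeR (adjusted p = 0.128, or 0.11 with the replicate block), and it passed in DESeq2 (adjusted p = 0.00322).

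Because *Bgn* and *Dcn* stood on opposite sides, their ratio within each library was also computed, a measure chosen after the values were seen and independent of how libraries are scaled. The TPM of *Bgn* was 1.22, 1.23 and 1.16 times that of *Dcn* in the control mice and 1.94, 2.01 and 2.01 times in the Lysm-Cre; Ampkα1fl/fl mice. The 6 values form a low and a high set with no value between 1.23 and 1.94, and on the log2 scale the mean difference was 0.72 (exact permutation test, two-sided, p = 0.1). The ratio of *Aspn* to *Dcn* was 0.441, 0.396 and 0.409 in the control mice and 0.736, 0.69 and 0.774 in the Lysm-Cre; Ampkα1fl/fl mice. These ratios use the same mice as the fold changes and add no replicate.

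**Figure D3:**
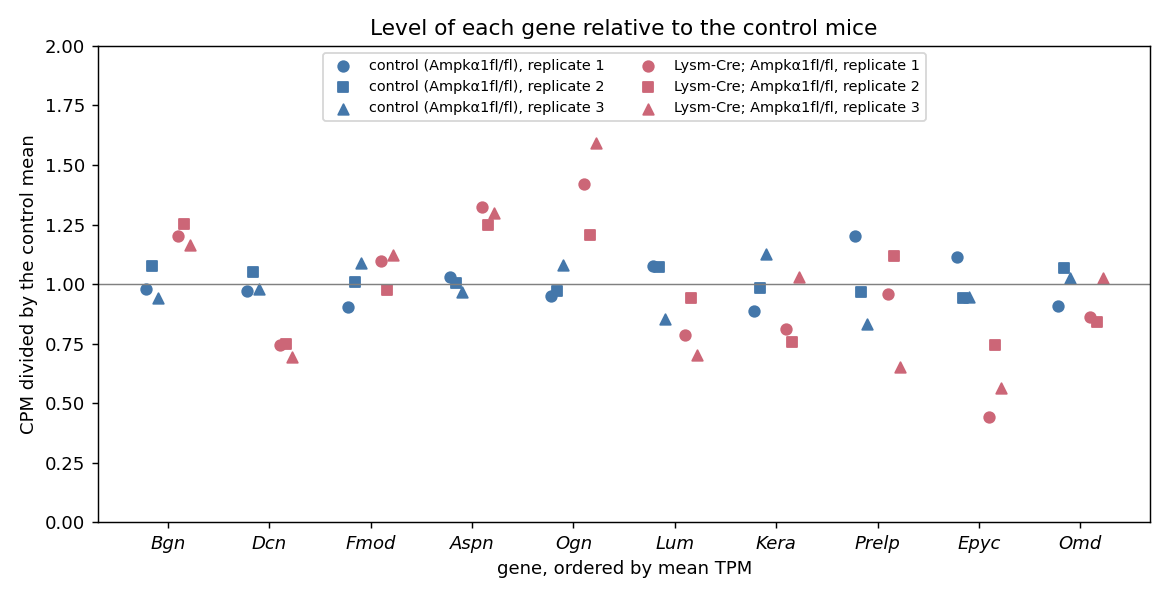
Each point is the CPM of a gene in a mouse divided by the mean of the 3 control mice, with colour for the group and shape for the replicate number. *Bgn*, *Aspn* and *Ogn* lie above all control points in the Lysm-Cre; Ampkα1fl/fl mice, *Dcn* and *Epyc* below, and the groups overlap in the other 5 genes.

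Osteoglycin belongs to the class with few leucine-rich repeats and is known from bone, cornea and vessel wall as well as tendon. *Ogn* (NCBI Gene 18295) had 19773, 19520 and 21696 reads in the control mice against 29985, 24542 and 32426 reads in the Lysm-Cre; Ampkα1fl/fl mice. It had the highest log2 fold change of the family, 0.49 (SE 0.11), from 1101 ± 77.5 to 1548 ± 213 CPM (SD, n = 3 each), and did not pass in edgeR (adjusted p = 0.107, or 0.0792 with the replicate block). The second Lysm-Cre; Ampkα1fl/fl mouse was the lowest of its group, with 1327 CPM against 1564 and 1753 CPM, and without it the edgeR adjusted p was 0.04 (log2 fold change 0.59). The order of the mice in *Ogn* went with the skeletal muscle genes, whose mean log2 CPM was 2.32, 3.91 and 6.22 in the control mice and 6.34, 4.84 and 7.92 in the Lysm-Cre; Ampkα1fl/fl mice: in each group the third mouse was highest in both. With that muscle score as a covariate in edgeR, the log2 fold change of *Ogn* was 0.31 (adjusted p = 0.259), while that of *Dcn* was -0.42, that of *Aspn* 0.39 and that of *Bgn* 0.33 (adjusted p = 0.104, 0.115 and 0.201). DESeq2 without the covariate gave *Ogn* an adjusted p of 0.000117.

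*Epyc* (NCBI Gene 13516), a cartilage member of the same class as osteoglycin, had 188, 154 and 154 reads in the control mice against 76, 123 and 93 reads in the Lysm-Cre; Ampkα1fl/fl mice. At these counts the counting error alone is 8.73% of the level. The log2 fold change was -0.78 (SE 0.2), with 8.94 ± 0.877 CPM against 5.21 ± 1.35 CPM (SD, n = 3 each), and it did not pass in edgeR (adjusted p = 0.147, or 0.171 with the replicate block). In the third control mouse all 154 reads were assigned to the predicted transcript and 0 to the curated one, while in the other 5 mice the reverse held, so values of single transcripts of *Epyc* cannot be compared across the libraries. Of 12 cartilage markers 10 were tested, and none of the 12 was at 0 reads in every library. In edgeR 1 passed (*Acan*, higher, not with the replicate block), against 0.898% of all genes tested. At an unadjusted p under 0.05 there were 4 higher (*Sox9*, *Matn3*, *Acan* and *Comp*, with no overlap between the groups) and 1 lower (*Col2a1*). Of all genes tested, 14.5% had an unadjusted p under 0.05, and the groups did not overlap in 20.4%. The second control mouse had the highest count of *Col2a1*, *Col9a1*, *Col9a2*, *Col9a3* and *Hapln1*, which had negative log2 fold changes. The summed level of all 12 cartilage markers was 2136 to 4285 CPM in the control mice and 2536 to 2889 CPM in the Lysm-Cre; Ampkα1fl/fl mice. The second control mouse, which had the most *Col2a1*, did not have the most *Epyc*, and without it the log2 fold change of *Epyc* was -0.82 (edgeR adjusted p = 0.35). The part of cartilage tissue in the values of *Epyc* was not tested.

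*Omd* (NCBI Gene 27047) had 64, 73 and 70 reads in the control mice against 62, 58 and 71 reads in the Lysm-Cre; Ampkα1fl/fl mice, with a counting error of 12.3%. A difference of the estimated size (log2 fold change -0.14, SE 0.17, edgeR adjusted p = 0.77) was not detectable at this depth, and the estimate lay between -0.23 and -0.08 without 1 mouse and was -0.27 with the muscle score as a covariate. Of 11 bone markers 10 were tested, 8 of them had a negative log2 fold change and 0 passed (smallest edgeR adjusted p = 0.0547). Of the 8, 7 had an unadjusted p under 0.05, against 14.5% of all genes tested in either direction. *Ibsp*, which encodes bone sialoprotein, had 165, 91 and 24 reads in the control mice against 0, 3 and 3 reads in the Lysm-Cre; Ampkα1fl/fl mice, and *Bglap*, which encodes osteocalcin, 20, 30 and 69 against 2, 4 and 2. None of the 11 markers was at 0 in every library. The most abundant marker, *Spp1*, which encodes osteopontin, had a log2 fold change of 0.52 (SE 0.16, edgeR adjusted p = 0.194) with every Lysm-Cre; Ampkα1fl/fl mouse above every control mouse. The sum of the list, which is mostly *Spp1*, was 99.3 to 145.0 CPM against 144.0 to 175.0 CPM. Their part in the values of *Omd* was not tested.

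Fibromodulin and lumican bind the same region of type I collagen, with lumican acting early and fibromodulin later in fibril growth. *Fmod* (NCBI Gene 14264), also used as a tendon marker, had 2578, 2866 and 3095 CPM in the control mice and 3121, 2771 and 3190 CPM in the Lysm-Cre; Ampkα1fl/fl mice, so that the second Lysm-Cre; Ampkα1fl/fl mouse lay below the second control mouse. Its log2 fold change was 0.09 (SE 0.09, edgeR adjusted p = 0.702), and -0.06 with the muscle score as a covariate, and it lay between 0.02 and 0.15 without 1 mouse. *Lum* (NCBI Gene 17022) had 1067, 1060 and 843 CPM in the control mice and 777, 931 and 694 CPM in the Lysm-Cre; Ampkα1fl/fl mice. Each Lysm-Cre; Ampkα1fl/fl mouse was below the control mouse with the same number, but the labels do not give such mice as pairs. The groups overlapped, since the second Lysm-Cre; Ampkα1fl/fl mouse was above the third control mouse. The log2 fold change of *Lum* was -0.31 (SE 0.14, edgeR adjusted p = 0.363, or 0.148 with the replicate block), and with the muscle score as a covariate it was -0.07 (edgeR adjusted p = 0.863).

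Keratocan is a keratan sulfate proteoglycan best known from the cornea. *Kera* (NCBI Gene 16545) had 553, 613 and 702 CPM in the control mice and 505, 470 and 641 CPM in the Lysm-Cre; Ampkα1fl/fl mice. The groups overlapped, although each Lysm-Cre; Ampkα1fl/fl mouse was below the control mouse with the same number, which the labels do not give as its pair. Its log2 fold change was -0.21 (SE 0.14, edgeR adjusted p = 0.548, or 0.272 with the replicate block). With the muscle score as a covariate it was -0.46 (SE 0.09, edgeR adjusted p = 0.0997). Leaving out 1 mouse gave values from -0.35 without the third Lysm-Cre; Ampkα1fl/fl mouse to -0.11 without the third control mouse and -0.12 without the second Lysm-Cre; Ampkα1fl/fl mouse. *Prelp* (NCBI Gene 116847) varied most among the abundant members, with 174, 140 and 121 CPM in the control mice and 139, 162 and 94.6 CPM in the Lysm-Cre; Ampkα1fl/fl mice, and a log2 fold change of -0.14 (SE 0.21, edgeR adjusted p = 0.825). Without the first control mouse that value was 0.01, and without the third Lysm-Cre; Ampkα1fl/fl mouse 0.05.

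Variation within a group was not the same for all members. The coefficient of variation in CPM was 2.94% to 4.53% for *Aspn* and *Dcn* and between 3.72% and 9.09% for *Bgn* and *Fmod*. It was 12.9% and 15.0% for *Lum*, 12.0% and 16.8% for *Kera* and 18.6% and 25.9% for *Prelp* in the control and Lysm-Cre; Ampkα1fl/fl groups. For these genes the counting error was 0.316% to 1.97%, well under the spread between mice. In both groups the third mouse was the lowest in *Bgn*, *Lum* and *Prelp* and the highest in *Fmod*, *Ogn* and *Kera* (in CPM). That mouse also had the highest skeletal muscle score of its group.

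The make-up of the family's RNA differed between the groups. *Dcn* made up 25.4%, 25.8% and 25.4% of the summed TPM of the 10 genes in the control mice and 18.2%, 18.6% and 17.2% in the Lysm-Cre; Ampkα1fl/fl mice, a difference of -7.55 percentage points (two-sided exact permutation p = 0.1). *Bgn* took 30.7% ± 1.19 and 35.7% ± 1.4 of the sum in the control and Lysm-Cre; Ampkα1fl/fl groups (SD, n = 3 each), *Aspn* 10.6% ± 0.512 and 13.2% ± 0.329, and *Ogn* 6.41% ± 0.553 and 8.68% ± 1.19. For these 4 genes the groups did not overlap. The share of *Fmod* was 13.5% ± 1.22 and 13.8% ± 0.992. Leaving out each mouse in turn kept the difference for *Dcn* between -7.83 and -7.14 percentage points and that for *Bgn* between 4.23 and 5.59. Shares add up to a fixed total, so those of different members are not independent.

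**Figure D4:**
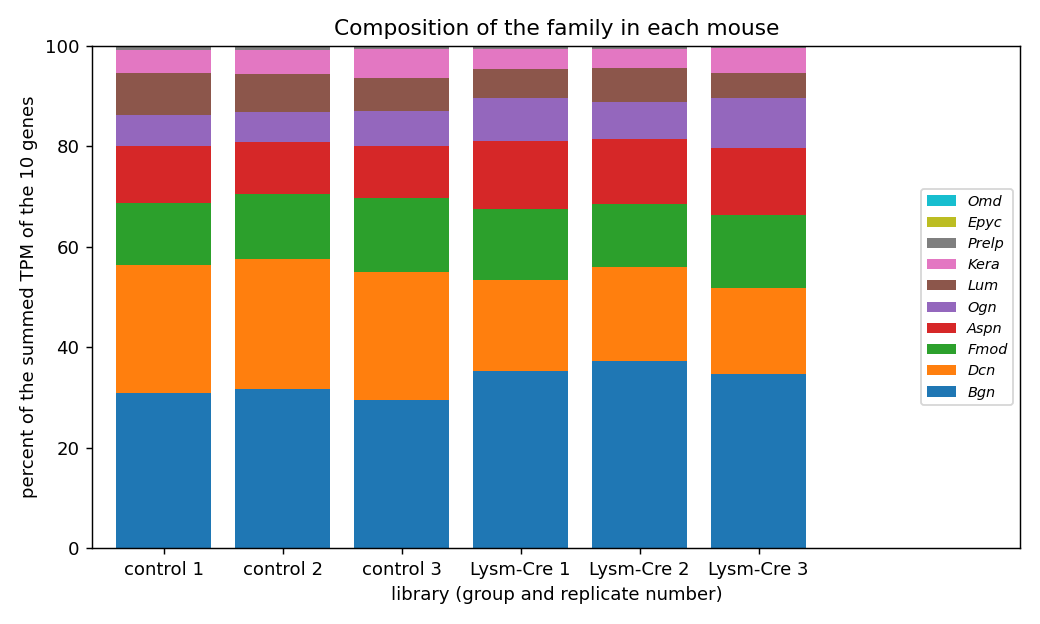
Each bar is a mouse and its segments are the percent of the summed TPM of the 10 genes taken by each gene, stacked from *Bgn* at the bottom in order of mean TPM. The *Dcn* segment is 25.4% to 25.8% in the control mice and 17.2% to 18.6% in the Lysm-Cre; Ampkα1fl/fl mice, and *Prelp*, *Epyc* and *Omd* are too small to see well.

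The clusters were also read by position, with no test of clustering. All 4 genes of the chromosome 10 cluster had negative log2 fold changes, from -0.78 to -0.21, and only *Dcn* among them passed in edgeR. *Lyz2*, the locus that makes Cre, lies on the same chromosome, from 117277541 to 117282272. Of the 53 genes tested from *Dcn* to *Lyz2*, the 2 that passed in edgeR were *Dcn* and *Lyz2*, the ends that define the stretch. The share of 3.77% with both ends counted therefore follows from the choice of ends. No gene between them passed, where 0.906% passed on all other chromosomes and 0.725% over all of chromosome 10. The part of this shared chromosome in the values of *Dcn*, *Lum*, *Kera* and *Epyc* was not tested. On chromosome 13, *Aspn* and *Ogn* were higher, while *Omd*, which lies between them, had -0.14 and their neighbour *Ecm2*, a related matrix gene named after its value was seen, -0.27 (SE 0.13, edgeR adjusted p = 0.409). *Fmod* and *Prelp* on chromosome 1 had 0.09 and -0.14.

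None of the relatives of the family passed. Of 8 further genes of this type (*Optc*, *Ecm2*, *Podn*, *Podnl1*, *Chad*, *Chadl*, *Nyx* and *Tsku*), 7 were tested and 0 passed in edgeR, or with the replicate block. At an unadjusted p under 0.05 there was 1, against 14.5% of all genes tested. The median log2 fold change of these relatives was -0.01 beside 0.00 over all genes tested. *Podnl1* had the largest value, with 84, 72 and 63 reads against 147, 105 and 120 reads (log2 fold change 0.74, SE 0.17, edgeR adjusted p = 0.118), and *Chad*, which encodes chondroadherin, had 0.37 (SE 0.19, edgeR adjusted p = 0.435).

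The sugar chains are built by a chain of transferases and sulfotransferases. Of 35 such genes 34 were tested, with 17 positive and 17 negative log2 fold changes and a median of -0.02. In edgeR 1 passed as higher and 1 as lower, against 0.33% and 0.568% of all genes tested. At an unadjusted p under 0.05 there were 3 higher and 3 lower, against 14.5% of all genes tested. The groups did not overlap in 9 of the 34, against 20.4% of all genes tested. *Chst2*, a sulfotransferase that acts on N-acetylglucosamine, fell, with 999, 1054 and 852 reads in the control mice against 663, 613 and 555 reads in the Lysm-Cre; Ampkα1fl/fl mice. All Lysm-Cre; Ampkα1fl/fl mice lay below all control mice (log2 fold change -0.69, SE 0.09, edgeR adjusted p = 0.036, or 0.0466 with the replicate block). Without any 1 of the 6 mice its edgeR adjusted p lay between 0.0503 and 0.178. *Chpf*, which encodes the chondroitin polymerizing factor, rose from 230.0 ± 6.41 to 294.0 ± 7.46 CPM (mean ± SD of 3 mice each; log2 fold change 0.35, SE 0.05, edgeR adjusted p = 0.0412, or 0.0842 with the replicate block). It passed without the second Lysm-Cre; Ampkα1fl/fl mouse (0.0446) and not without any other (edgeR adjusted p from 0.0851 to 0.197). *Chst7*, another chondroitin and N-acetylglucosamine sulfotransferase, had -0.49 (SE 0.15, edgeR adjusted p = 0.187).

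Among 15 genes for cleavage of these proteins and the collagens they bind, 14 were tested and 0 passed in edgeR, with a median log2 fold change of -0.04. At an unadjusted p under 0.05 there were 4, against 14.5% of all genes tested, and 4 passed with DESeq2, against 4.77%. The largest values were -0.63 in *Mmp9* (SE 0.5, edgeR adjusted p = 0.628) and -0.61 in *Tll2* (SE 0.82, edgeR adjusted p = 0.796), and both overlapped between the groups. In 4 of the 14 tested genes, named after their values were seen, the groups did not overlap, against 20.4% of all genes tested. The metalloproteinases *Mmp2* and *Mmp14* were higher in every Lysm-Cre; Ampkα1fl/fl mouse (log2 fold change 0.40 each, edgeR adjusted p = 0.126 and 0.171). *Pcolce* and *Adamts5* were lower in every one (-0.23 and -0.60, edgeR adjusted p = 0.146 and 0.156). Over all genes these shares were 8.94% higher and 11.4% lower. The summed level of the list was 6853 to 7102 CPM against 7281 to 9044 CPM. Of 19 receptors and growth factors that these proteins bind, 19 were tested and *Tgfb3* passed, where 0.898% of all genes tested passed. At an unadjusted p under 0.05 there were 4 higher and 4 lower, against 14.5% of all genes tested. The groups did not overlap in 7 of the 19, against 20.4% of all genes tested. *Tgfb3*, a TGF-β form of developing tendon, had 338, 356 and 343 CPM in the control mice and 488, 428 and 466 CPM in the Lysm-Cre; Ampkα1fl/fl mice (log2 fold change 0.41, SE 0.07, edgeR adjusted p = 0.0467, or 0.0953 with the replicate block). It passed without the second Lysm-Cre; Ampkα1fl/fl mouse (edgeR adjusted p = 0.0314) and with none of the others left out (0.115 to 0.217). *Bmp4* had the largest value of that list, -0.54 (SE 0.12, edgeR adjusted p = 0.116). *Tlr2* and *Tlr4*, the receptors of free biglycan, had -0.29 and -0.04 (edgeR adjusted p = 0.128 and 0.84); this pair and the collagens of type I were named after their values were seen.

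Other matrix genes were read beside the family. Among 19 fibrillar collagens and proteins of the fibril surface, all tested, 6 had positive and 13 negative log2 fold changes (median -0.11). In edgeR *Tnxb* passed, where 0.898% of all genes tested passed. At an unadjusted p under 0.05 there were 3 higher and 7 lower, against 14.5% of all genes tested. The groups did not overlap in 9 of the 19, against 20.4% of all genes tested. *Tnxb*, which encodes tenascin-X, had 666, 739 and 696 CPM in the control mice and 348, 382 and 283 CPM in the Lysm-Cre; Ampkα1fl/fl mice (log2 fold change -1.05, SE 0.11, edgeR adjusted p = 0.0174, or 0.0259 with the replicate block). Its edgeR adjusted p was 0.0844, 0.102 and 0.0555 without the first, the second or the third control mouse and 0.0975 without the first Lysm-Cre; Ampkα1fl/fl mouse. *Col1a1* and *Col1a2*, the chains of the main fibril collagen, had log2 fold changes of -0.00 and -0.01 (SE 0.07 and 0.08), and *Col2a1* had -1.89 (SE 0.76, edgeR adjusted p = 0.316), with the second control mouse far above the others. Among 10 large proteoglycans and link proteins 8 were tested (median -0.17) and *Acan* passed. At an unadjusted p under 0.05 there were 1 higher and 1 lower, and the groups did not overlap in 2 of the 8. *Acan*, which encodes aggrecan, rose from 815.0 ± 71.8 to 1239 ± 56.5 CPM (mean ± SD of 3 mice each; log2 fold change 0.60, SE 0.08, edgeR adjusted p = 0.0298, or 0.0634 with the replicate block). It passed without the second Lysm-Cre; Ampkα1fl/fl mouse (edgeR adjusted p = 0.043) and with none of the others left out (0.073 to 0.163). *Vcan*, which encodes versican, had -0.63 (SE 0.2, edgeR adjusted p = 0.203, or 0.0871 with the replicate block).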

How the data were processed

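RNA of injured tendon from 3 mice per group was sequenced on the BGISEQ platform. Per the file headers, the authors deposited, for 65053 RefSeq transcripts, an estimated count of reads (not normalized), TPM, FPKM, a rescaled signal of reads and group averages of each. FPKM, the rescaled signal and the averages were not used. The build in the submitters' processing notes is GRCm38.p6, and the aligner and counting tool are not given in the sources used here. The deposited TPM values were scaled by the authors to transcript length and library.

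Estimated counts were summed per gene and rounded, then tested by edgeR 4.0.16 under R 4.3.3 (scaling by TMM, filterByExpr, quasi-likelihood F test, 14261 genes, Benjamini-Hochberg, threshold 0.05), with the test checked on simulated data. Standard errors are the estimate over the square root of F. Symbols came from NCBI Gene identifiers (99.72% of genes matched). DESeq2 1.42.0 and limma 3.58.1 on log2(TPM + 0.5) were alternatives, with others given under the closing section. Exact permutation tests used log2(CPM + 0.5) for single genes, and for sums, shares and ratios the percentages, TPM or log2 ratios themselves. Deviations from the group mean had positive correlations over genes between libraries sharing a replicate number in the labels (0.184, 0.118 and 0.31). Blocked values are printed beside the others for that reason only. These correlations do not single out the same-numbered pairs, since the first control and second Lysm-Cre; Ampkα1fl/fl mice had 0.501.

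The genes, lists, motifs and tests were chosen with earlier results of these data known. Named genes were the 10 members, the targeted and Cre loci and, in each related list, genes that passed plus the 2 largest changes. Counting errors cover sampling of reads only.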

Additional observations from a re-analysis of the deposited data

How the results depend on the processing

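The count of the 10 genes that passed (2 in edgeR) was 1 with upper-quartile scaling, 5 with DESeq2, 0 with the replicate block, 0 with a covariate for the muscle score, 0 with limma on TPM, and 0 to 3 without 1 mouse. For all genes (128 in edgeR) it was 680 with DESeq2, 47 with the replicate block, 60 with the muscle score, 69 with limma on TPM, and 8 to 276 without 1 mouse. RLE scaling, no filter on low counts and at least 10 reads in every library left both *Dcn* and *Aspn* past the threshold. Over 14 alternatives per gene, *Dcn* passed in 6 and *Aspn* in 5, always in the same direction, and *Bgn*, *Ogn*, *Lum*, *Kera*, *Epyc* and *Omd* also kept theirs. The sign turned for *Fmod* (-0.06 with the muscle score) and for *Prelp* (0.23 with the muscle score, 0.01 without the first control mouse and 0.05 without the third Lysm-Cre; Ampkα1fl/fl mouse, over a range of -0.31 to 0.05 without 1 mouse), neither of which passed in any fit. The causes were not tested, beyond that fits without a mouse use fewer samples.

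In the related lists, the number that passed moved as follows. Sugar chain synthesis (2) had 1 with the replicate block, 0 with the muscle score and 0 to 1 without 1 mouse. Cleavage (0) had 4 with DESeq2 and 0 to 3 without 1 mouse, and its median was 0.17 with the muscle score. Receptors and growth factors (1) had 0 with upper-quartile scaling, 3 with DESeq2, 0 with the replicate block, 0 with the muscle score and 0 to 1 without 1 mouse, and its median was 0.07 with the muscle score. Fibrillar collagens (1) had 8 with DESeq2, 2 with the muscle score and 0 to 2 without 1 mouse. Large proteoglycans (1) had 0 with the replicate block and 0 to 1 without 1 mouse. At least 8 of the 10 genes kept their place by TPM in each library. The *Bgn* to *Dcn* ratio was chosen after seeing the data. The counting error was 12.3% for *Omd*, near its spread between mice (8.39% and 11.2%). For *Epyc* it was 8.73%, near the 9.81% spread among the control mice and below the 26.0% spread among the Lysm-Cre; Ampkα1fl/fl mice.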
